A study of Mus musculus with 6 samples.

Results

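The genes described here encode the complexes and chaperones that place H2A.Z in nucleosomes or take it out. Their 36 members were listed by name, and their intervals are those of the deposited table that overlap the body of a member gene or lie within 1 kb of one of its transcription start sites (TSS). By this rule 118 of the 39768 intervals of the table belonged to them. Of these, 105 had their midpoint within 1 kb of a TSS of the gene, and are called promoter intervals, and 13 lay elsewhere in a gene.

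Accessibility was assayed by ATAC-seq, in which the Tn5 transposase cuts exposed DNA and the fragment ends counted in an interval report how open it is. The CTL group (3 libraries) came from C57BL/6 mice of 7 weeks that were H2A.Z-1 flox/flox and H2A.Z-2 flox/flox and carried no Cre, and the group labelled H2A.Z dKO (3 libraries) came from mice of the same age and strain with the same floxed alleles and the HSA-Cre transgene. Each library was made from 50000 nuclei. HSA drives Cre in post-mitotic muscle fibres, so nuclei of other cells in the muscle keep both H2A.Z genes. The labels name nuclei of tibialis anterior muscle purified by ultracentrifugation, whereas the methods describe hind limb muscles homogenized in a Dounce, and neither says whether the libraries of a group came from separate animals. In bulk nuclei, fewer nuclei of a cell type and less accessible chromatin in each of them cannot be told apart.

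H2A.Z is exchanged for H2A as a dimer with H2B. The SRCAP complex and the p400/TIP60 complex carry out this exchange, each with a large ATPase and with RUVBL1, RUVBL2 and actin-related proteins as common parts, and TIP60 (Kat5) also acetylates histones. The INO80 complex slides nucleosomes and has been linked to H2A.Z removal, and ANP32E is a chaperone that strips H2A.Z from nucleosomes. The question addressed by the comparison is whether the promoters of this machinery differ in accessibility between muscles labelled CTL and H2A.Z dKO.

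The sequence under some of these intervals is shown first, because the results turn on the promoters of the 3 ATPases, the acetyltransferase and Ruvbl1, on the Meaf6 promoter and on an intron of Ruvbl2. All are read from mm9 (NCBIM37), 5′ to 3′ on the strand of the gene and outside its exons, and capitals mark letters of the motifs GGGCGGG (SP) or CCAAT (NFY) or CCGGAAG (ETS) on either strand. They lie at chr7:134655381-134655540 (Srcap, plus strand), chr5:111199737-111199896 (Ep400, minus strand), chr2:119303535-119303694 (Ino80, minus strand), chr19:5610051-5610120 (Kat5, minus strand), chr6:88415243-88415402 (Ruvbl1, plus strand), chr4:124762584-124762743 (Meaf6, plus strand) and chr7:52682191-52682211 (Ruvbl2 intron, minus strand). The stretch of Meaf6 is 78.1% G or C and holds a pair of overlapping SP matches, whereas that of Ruvbl1 is 52.5% G or C and holds a pair of CCAAT boxes.
Srcap: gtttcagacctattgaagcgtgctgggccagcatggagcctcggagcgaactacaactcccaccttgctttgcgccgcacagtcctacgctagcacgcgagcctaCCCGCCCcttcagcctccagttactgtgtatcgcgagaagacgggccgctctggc
Ep400: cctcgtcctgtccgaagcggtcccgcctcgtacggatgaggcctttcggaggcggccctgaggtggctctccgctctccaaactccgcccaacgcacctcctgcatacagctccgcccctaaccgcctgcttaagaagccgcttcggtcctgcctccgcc
Ino80: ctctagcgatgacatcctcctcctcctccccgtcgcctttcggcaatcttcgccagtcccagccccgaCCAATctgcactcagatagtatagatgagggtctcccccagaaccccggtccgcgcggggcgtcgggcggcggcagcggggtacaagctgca
Kat5: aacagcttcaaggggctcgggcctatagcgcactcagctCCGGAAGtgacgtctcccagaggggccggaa
Ruvbl1: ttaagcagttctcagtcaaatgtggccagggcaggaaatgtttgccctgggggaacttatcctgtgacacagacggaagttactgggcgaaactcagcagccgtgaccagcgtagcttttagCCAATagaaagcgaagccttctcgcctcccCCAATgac
Meaf6: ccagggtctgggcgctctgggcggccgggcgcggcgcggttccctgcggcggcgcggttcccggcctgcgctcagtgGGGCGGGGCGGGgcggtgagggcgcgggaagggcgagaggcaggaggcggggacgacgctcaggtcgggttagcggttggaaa
Ruvbl2 intron: cagcgtctcatgtagcctaga

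A promoter interval was found for 35 of the 36 member genes, against 10980 of 22380 protein-coding genes of the annotation (49.1%). The exception was Ino80b, an INO80 subunit, whose only interval (Peak_13195) lay at the end of the gene and at the promoter of its neighbour Wbp1. The member genes had a median of 3 promoter intervals, where protein-coding genes with at least 1 had a median of 2. The most intervals were found at Brd2, a bromodomain protein that binds acetylated chromatin (10 intervals), and at the Enhancer of polycomb genes Epc1 (8) and Epc2 (6). Some of these overlap: 16 member intervals in 13 genes began inside the preceding one, and an end in shared bases was counted for each. For 12 member genes promoter intervals also lay within 1 kb of the TSS of another gene, though not the lead interval in the case of Epc1. In 8 of these the neighbour was protein-coding, as for Ruvbl2 with Gys1, Znhit1 with Plod3, Ino80e with Hirip3 and Tfpt with Prpf31, and counts at such promoters cannot be assigned to one gene.

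To compare levels between genes, the promoter interval with the highest CPM, the counts scaled to the library total, was taken as the lead interval of each gene and its counts were divided by its width (RPKM). The width of lead intervals ran from 138 to 677 bp (median 344 bp), and 25 of 35 had their midpoint within 100 bp of the TSS. Their median RPKM over the 6 libraries was 166, beside 140 over the lead intervals of all protein-coding genes, and 26 of the 35 lay above the median of all of them. The highest was at Actl6a, which encodes the actin-related protein BAF53A shared by all 3 complexes and by SWI/SNF, with 316, 309 and 323 RPKM in CTL and 391, 298 and 289 in H2A.Z dKO. Nap1l4, a chaperone of H2A and H2B, Ep400 and Srcap came next, with means of 312, 303 and 293 RPKM. The lowest was at Dmap1, a subunit of both SRCAP and TIP60, with 93.6, 87.7 and 57.6 RPKM in CTL and 69.1, 87.6 and 64.9 in H2A.Z dKO. The range from Dmap1 (mean 76.8 RPKM) to Actl6a (mean 321 RPKM) was 4.18-fold, and none of the 34 pairs of neighbours in this order had 6 values that all lay apart, so only genes some places apart can be ranked.

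**Figure D1:**
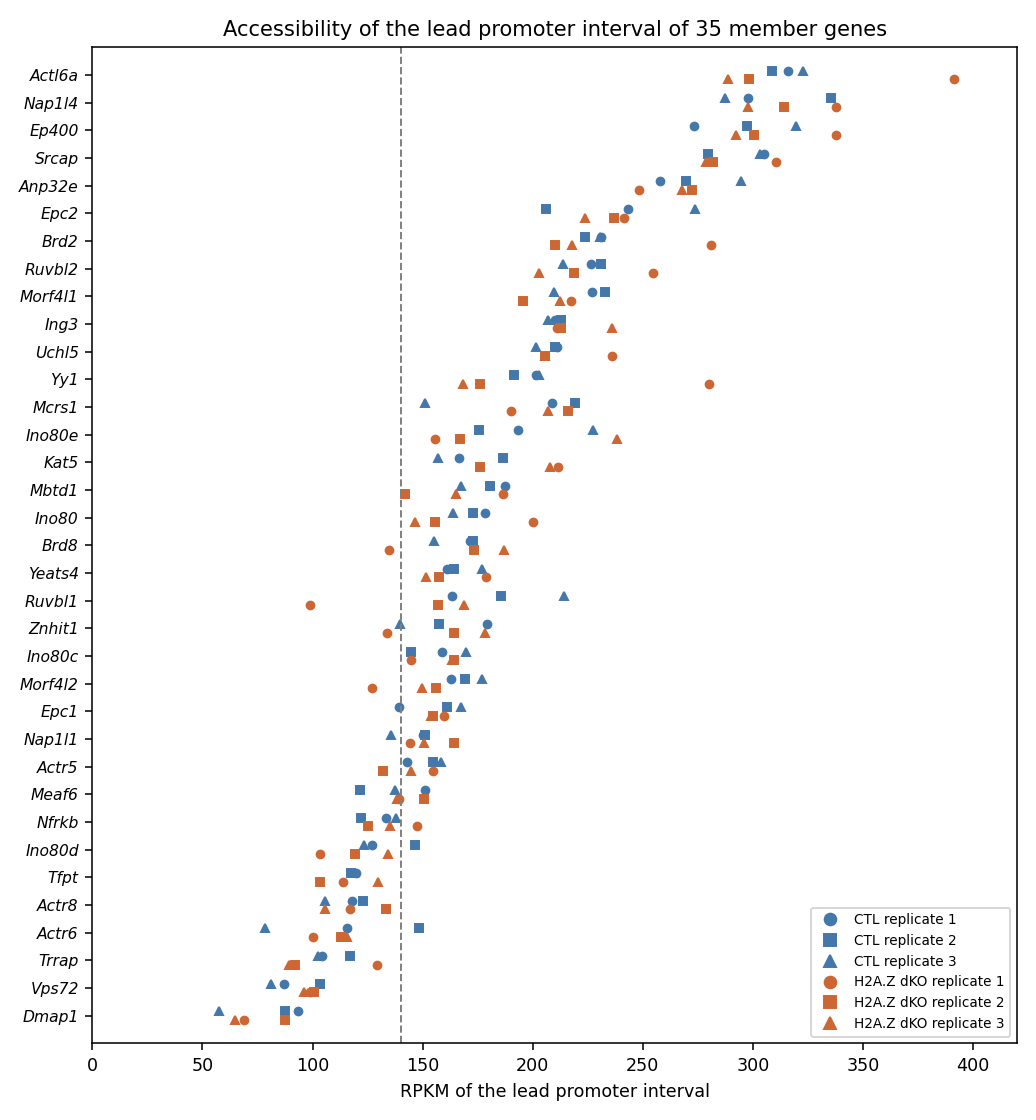
RPKM (x axis) of the lead promoter interval of 35 member genes (y axis, ordered by the mean), with 1 point per library, CTL in blue and H2A.Z dKO in orange, and the median of all 10980 protein-coding lead intervals (140) as a dashed line. The order runs from Actl6a at 321 to Dmap1 at 76.8, and the points of both groups overlap for nearly every gene.

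The base composition around the lead intervals differed little from that of other genes. In 300 bp centred on the interval, member genes had a median GC content of 62.7% (52.0 to 75.7%), beside 65.3% over all protein-coding lead intervals, and a median ratio of observed to predicted CpG of 0.904, beside 0.827. Of 8 motifs searched on both strands in these windows, CCGGAAG, a site of ETS transcription factors, was found in 13 of 35 member windows (37.1%) and in 20.5% of all. AAGATGGC, the site of YY1, itself an INO80 partner encoded by a member gene, was found at Kat5 and Znhit1 (5.71%, beside 5.69% of all), and CCAAT in 37.1% beside 38.3%. GGGCGGG was found in 45.7% beside 55.1%, the muscle E-box CAGCTG in 3 windows (8.57% beside 16.2%), TATAAA in 2, and GCGCATGC (NRF1) and TGACGTCA (CRE) in 1 each. These are matches of letters, not measured sites. In 11 of the 13 windows, 1 ETS match each was placed against the TSS nearest to the interval. Further matches in a window, such as the one in the Kat5 stretch printed earlier, were not counted. Distances over all genes were not examined, so the share near the TSS has no background. Of the 11 placed matches, 6 lay within 30 bases of that TSS. They follow in mm9 on the strand on which the letters read CCGGAAG, with these in capitals, because this motif had the widest gap between members and all genes: Actr6 (chr10:89195041-89195070, minus), Dmap1 (chr4:117354835-117354864, minus), Ino80e (chr7:134005359-134005388, minus), Kat5 (chr19:5610039-5610068, minus), Mcrs1 (chr15:99082368-99082397, minus) and Znhit1 (chr5:137462765-137462794, minus).
Actr6: gaccatagagtaCCGGAAGaagcctgagca
Dmap1: tacgacgcacagCCGGAAGttcctatccgt
Ino80e: gttgcaaagtctCCGGAAGtggaggtgtga
Kat5: ctcccagaggggCCGGAAGtggcagtggag
Mcrs1: ttcgttcgcaacCCGGAAGtagatgtgtct
Znhit1: gtgtgcacgccaCCGGAAGgggtgtgctca

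**Figure D2:**
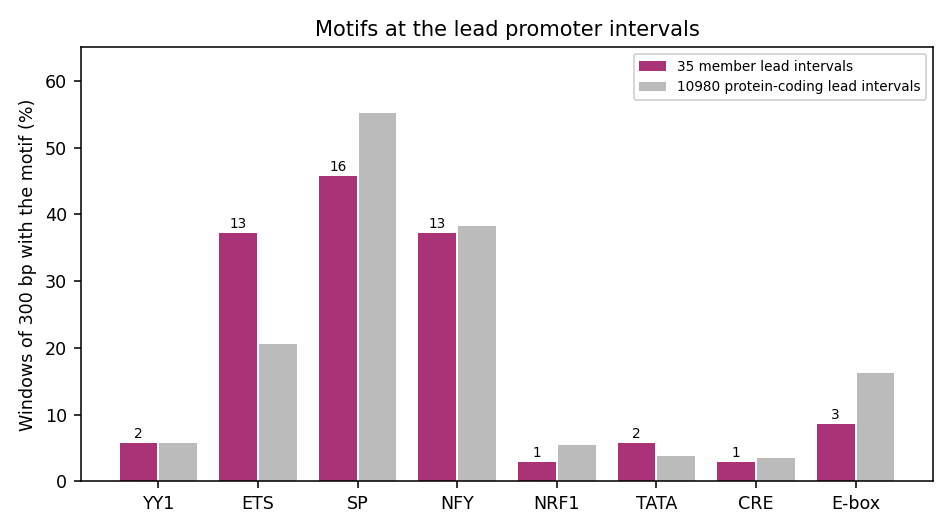
Share of 300-bp windows with each motif (y axis, %) for the 35 member lead intervals, with the number of windows above the bar, and for 10980 lead intervals of protein-coding genes. ETS was the motif with the widest gap, 37.1% beside 20.5%.

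Before the groups are compared, a few facts of the libraries bear on the values. Their counts summed to between 3520008 and 6117245. Exons 2 to 4 of H2afz, which Cre deletes, held 12.9, 14.9 and 9.37 CPM in CTL and 9.70, 11.4 and 12.7 CPM in H2A.Z dKO, so these 2 intervals do not tell the groups apart and the groups rest on the labels. Promoter intervals were found for 6 of 9 muscle fibre markers, with summed levels of 299.6 to 408 CPM in CTL and 306 to 421 in H2A.Z dKO, and for 4 of 5 fibroblast markers, with 77.2 to 94.8 and 93.6 to 100.5 CPM. Of 6 endothelial markers 5 had one, with 71.1 to 82.1 CPM in CTL and 57.4 to 64.2 in H2A.Z dKO. None of 5 macrophage and 4 satellite cell markers had one. The part of this endothelial difference in the values below was not tested.

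H2A.Z dKO replicate 1 stood apart from the other libraries at the member genes. Of the 118 member intervals, 59 (50%) had their highest CPM of the 6 libraries in this one, beside 31.7% of all promoter intervals and 20.6% of all intervals. The median log2 deviation of the 105 member promoter intervals from the mean of the 6 libraries was 0.20 in H2A.Z dKO replicate 1, -0.069 and -0.082 in replicates 2 and 3, and between -0.046 and 0.0043 in CTL. Across the 118 member intervals the log2 difference between replicate 1 and the mean of replicates 2 and 3 went with the GC content of the 300 bp around them (Pearson r = 0.59, Spearman rho = 0.51, a description over intervals that share libraries). The Pearson r was 0.42 over all intervals and 0.28 over all promoter intervals. In the 31 member intervals with a GC content of 70% or more this difference had a median of 0.34, and in the 44 under 60% a median of 0.016. The part of base composition in these differences was not tested further, and values without this library are given beside the results that it moves most.

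**Figure D3:**
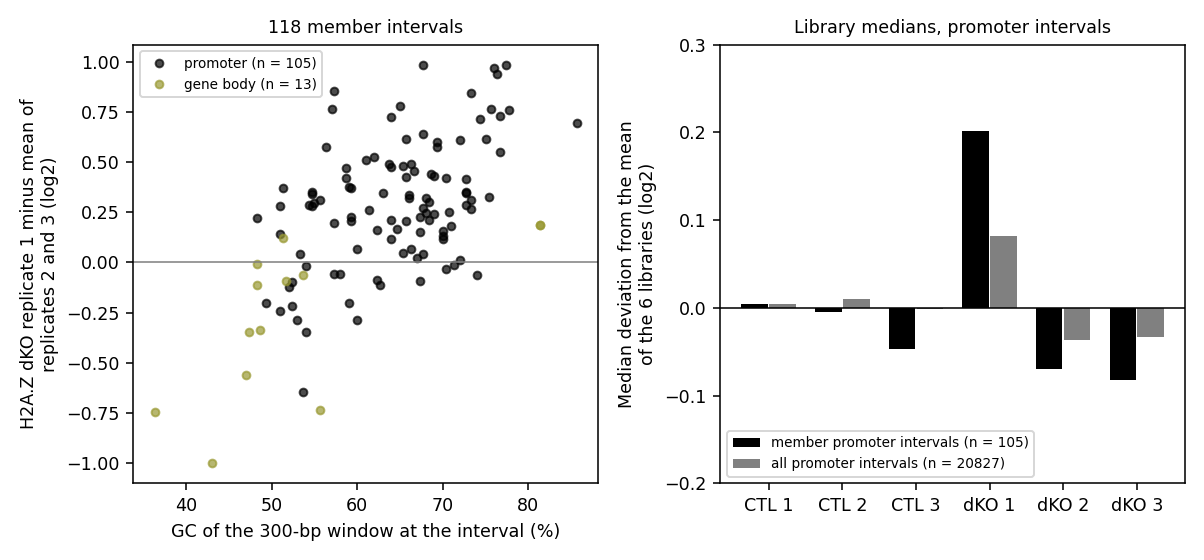
Left, the log2 difference between H2A.Z dKO replicate 1 and the mean of replicates 2 and 3 (y axis) against the GC content of 300 bp (x axis) for 118 member intervals, with promoter intervals in black and gene body intervals in olive. Right, the median log2 deviation of each library from the mean of the 6, for 105 member and 20827 promoter intervals in all, which for the members reaches 0.20 in H2A.Z dKO replicate 1.

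No member interval passed the test between H2A.Z dKO and CTL. With edgeR's quasi-likelihood test adjusted over all 39768 intervals, 0 of 118 had an adjusted p under 0.05, as did 0 of all intervals (0%), and the smallest adjusted p among the members was 0.943. DESeq2 and limma voom called 0 as well. At an unadjusted p under 0.05 there were 5 of 118 member intervals (4.24%), beside 4.95% of all intervals. Of these, 3 were higher in H2A.Z dKO, where 2.64% of all intervals were, and 2 were lower, where 2.31% were. The 3 values of one group lay wholly above those of the other in 6 member intervals (5.08%), beside 10.6% of all, with 5 higher in H2A.Z dKO (all intervals 5.26%) and 1 lower (all intervals 5.30%). In this edgeR fit the members' shares were near or below the background. With DESeq2 there were 4 of 118 (3.39%), beside 1.90% of all intervals. The edgeR count at an unadjusted p under 0.05 moved with single libraries. It was 7 (5.93%, beside 7.95% of all intervals) without H2A.Z dKO replicate 1, but 13 (11.02%, beside 5.38%) without replicate 2 and 11 (9.32%, beside 5.60%) without replicate 3, where replicate 1 is 1 of 2 H2A.Z dKO libraries. It was 2 (1.69%) without CTL replicate 2 or 3, beside 4.21% and 3.18%, and 5 (4.24%, beside 4.92%) without CTL replicate 1.

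The median log2 fold change (H2A.Z dKO minus CTL) of the 105 member promoter intervals was 0.043, beside 0.011 over all 20827 promoter intervals, and turned to -0.065 without H2A.Z dKO replicate 1, where that of all promoter intervals turned to -0.039. Over the 66 member intervals within 250 bp of the TSS it was 0.0076. Summed over all 105 promoter intervals the members held 4032, 4015 and 3980 CPM in CTL and 4510, 3897 and 3908 CPM in H2A.Z dKO. Replicate 1 alone lay above CTL, and replicates 2 and 3 lay below it. The difference of the means was 96.0 CPM, with an SD of 350.3 CPM among the H2A.Z dKO libraries, and -106 CPM without replicate 1. With 3 libraries against 3, an exact permutation test of such a sum cannot go below p = 0.1. The 35 lead intervals held 2399, 2433 and 2411 CPM in CTL and 2518, 2339 and 2348 CPM in H2A.Z dKO.

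The errors bound most of the differences within 2-fold, but fewer of them within 1.5-fold. At 95% confidence the fold change was bounded within 2-fold in either direction for 113 of 118 member intervals and for 104 of 105 promoter intervals (99.0%, beside 96.2% of all promoter intervals). The bound within 1.5-fold held for 81 of 118 member intervals, 78 of 105 promoter intervals and 3 of 13 gene body intervals. For the 35 lead intervals, chosen for the highest CPM, the fold change was bounded within 2-fold in all. Within 1.5-fold 33 of them were bounded, the exceptions being Ruvbl1 and Dmap1. The median standard error was 0.18 over all member intervals and 0.14 over the leads.

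Among the catalytic subunits, none passed the test and the groups overlapped at each. At the lead interval of Srcap (Peak_16672), the ATPase of the SRCAP complex, there were 305, 279 and 303 RPKM in CTL and 310, 282 and 279 in H2A.Z dKO. The log2 fold change was -0.025 (SE 0.11, edgeR adjusted p = 0.998, and -0.10 without replicate 1 of H2A.Z dKO). At Ep400 (Peak_11087), the ATPase of the p400/TIP60 complex, there were 273, 297 and 319 RPKM in CTL and 338, 301 and 292 in H2A.Z dKO (0.069, SE 0.10, and -0.018 without replicate 1). The groups overlapped at both promoters, and both are among the most accessible of the members. At Ino80 (Peak_4116), the ATPase of the INO80 complex, CTL gave 178, 173 and 164 RPKM and H2A.Z dKO gave 200.3, 156 and 147, with replicate 1 on the other side of CTL from the rest (-0.030, SE 0.14, and -0.21 without replicate 1). At Kat5 (Peak_37904), whose protein acetylates histones H4, H2A and H2A.Z, CTL gave 167, 187 and 157 RPKM and H2A.Z dKO gave 212, 176 and 208. Its log2 fold change of 0.22 (SE 0.16, edgeR adjusted p = 0.972) was the highest among the 35 leads.

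The subunits that handle H2A.Z itself did not pass the test either. Vps72, also called YL1, binds the H2A.Z-H2B dimer. Its lead interval (Peak_6394) had 86.9, 103 and 81.0 RPKM in CTL and 98.7, 101 and 96.2 in H2A.Z dKO (0.12, SE 0.18), and the log2 fold change was 0.058 without CTL replicate 3 and 0.23 without CTL replicate 2. A second interval downstream of its TSS (Peak_6395) had 60.5, 71.1 and 74.8 RPKM in CTL and 129, 69.6 and 77.9 in H2A.Z dKO, and its log2 fold change of 0.45 became 0.094 without replicate 1. Znhit1, a subunit that SRCAP needs for the exchange, had 179, 157 and 140 RPKM in CTL and 134, 164 and 178 in H2A.Z dKO (-0.015, SE 0.15) in its lead interval. Actr6, an actin-related protein of SRCAP, had 116, 148 and 78.3 RPKM in CTL, a range wider than that in H2A.Z dKO (100.2, 113 and 116). Yeats4, a reader of acylated histones found in SRCAP and TIP60, had 161, 164 and 177 RPKM in CTL and 179, 157 and 151 in H2A.Z dKO. The log2 fold changes of Actr6 and Yeats4 were -0.077 (SE 0.19) and -0.036 (SE 0.15), and none of these groups of values was apart. Anp32e, which removes H2A.Z, had 258, 269.8 and 295 RPKM in CTL and 248, 272 and 268 in H2A.Z dKO (-0.061, SE 0.10). Its log2 fold change ran from -0.10 to -0.0069 when a library was left out.

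Ruvbl1 and Ruvbl2 encode AAA+ ATPases that form the ring at the core of all 3 complexes, and the member intervals with the smallest p included one of each. At the lead and only promoter interval of Ruvbl1 (Peak_13361) there were 46.4, 52.7 and 60.8 CPM in CTL and 28.1, 44.6 and 48.0 CPM in H2A.Z dKO. The lowest was in replicate 1, and the highest of H2A.Z dKO lay above the lowest of CTL, so that the groups overlapped. The log2 fold change was -0.41 (SE 0.16, edgeR adjusted p = 0.972). Without H2A.Z dKO replicate 1 it was -0.21, and neither then nor without CTL replicate 3 was it among those at an unadjusted p under 0.05. The GC content there is 53.7% in 300 bp, below the median of 62.7% over the lead intervals. The lead intervals of Actr6, Ino80d, Znhit1 and Tfpt have less. At the promoter of Ruvbl2 the lead interval (Peak_15290), shared with Gys1, had 227, 231 and 214 RPKM in CTL and 255, 219 and 203 in H2A.Z dKO (0.013, SE 0.11, and -0.11 without replicate 1).

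The member interval with the smallest p was a 21-bp interval in an intron of Ruvbl2 (Peak_15288, chr7:52682191-52682211), 7792 bp from the nearest TSS of the gene, whose whole sequence is printed above. It held 7, 8 and 3 counts in CTL and 19, 16 and 18 counts in H2A.Z dKO, that is 1.14, 1.73 and 0.852 CPM against 3.23, 3.52 and 3.58 CPM. All H2A.Z dKO libraries, replicate 1 included, lay above all CTL libraries. The log2 fold change was 1.43 (SE 0.34, 95% confidence interval 0.72 to 2.13), and it stayed between 1.28 and 1.71 when any library was left out. It ranked 16 of 39768 by p, its edgeR adjusted p was 0.943, and the difference did not pass the test. The deposited table lists it in the peak set of H2A.Z dKO only, so it entered the table through that group, and its counts are among the lowest of the members.

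In the p400/TIP60 complex, 4 of 52 promoter intervals (7.69%) had an unadjusted p under 0.05, that of the shared Ruvbl1 among them, beside 3.83% of all promoter intervals. In SRCAP it was 1 of 19 (5.26%), in INO80 1 of 38 (2.63%), both times that of Ruvbl1, and among the chaperones and Brd2 0 of 15. The counts without H2A.Z dKO replicate 1 were 2 in p400/TIP60 (3.85%), 1 in SRCAP (5.26%, at Srcap Peak_16673), 2 in INO80 (5.26%, at Ino80d Peak_591 and Yy1 Peak_28297) and 0 among the chaperones and Brd2, beside 6.51% of all promoter intervals. None passed the adjusted test. Meaf6 is a small subunit of several acetyltransferase complexes. Its interval downstream of the TSS (Peak_8785) had 25.0, 18.8 and 24.4 CPM in CTL and 35.1, 27.0 and 30.7 in H2A.Z dKO, with all of H2A.Z dKO above CTL (log2 fold change 0.45, SE 0.18, edgeR adjusted p = 0.972). Without replicate 1 it was 0.32, and neither then nor without CTL replicate 2 was it among those at an unadjusted p under 0.05. At Epc2 (Peak_3319) there were 21.3, 16.2 and 19.0 CPM in CTL and 38.1, 20.4 and 20.7 in H2A.Z dKO, so that replicate 1 alone stood high. Its log2 fold change of 0.50 (SE 0.23, edgeR adjusted p = 0.972) became 0.097 without that library, and it was not at an unadjusted p under 0.05 with limma voom or without CTL replicate 2 or 3 either. Morf4l2, a member of the MRG family, had 107.6, 112 and 117 CPM in CTL and 83.9, 103 and 99.0 in H2A.Z dKO at its lead interval (Peak_39616), which it shares with BC065397. There all H2A.Z dKO libraries lay below CTL, with a log2 fold change of -0.24 (SE 0.11, edgeR adjusted p = 0.972) and of -0.17 without replicate 1. It was not at an unadjusted p under 0.05 with DESeq2 or when any CTL library was left out. Its paralogue Morf4l1, which binds methylated H3K36, had a gene-level log2 fold change of 0.025 (SE 0.10), and of -0.053 without replicate 1.

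After Ruvbl1 and Morf4l2, the smallest p among member intervals that were lower in H2A.Z dKO was that of a 25-bp exonic interval of Ino80c, an INO80 subunit (Peak_36739), with 17, 14 and 14 counts in CTL and 11, 6 and 17 counts in H2A.Z dKO (log2 fold change -0.52, SE 0.34, edgeR adjusted p = 0.972). It was -0.95 without H2A.Z dKO replicate 3 and -0.29 without replicate 2. The groups overlapped, and for the promoter sum of Ino80c the log2 fold change was bounded between -0.23 and 0.22 at 95% confidence. Yy1, a zinc finger transcription factor that also joins INO80, had 201.4, 192 and 203 RPKM in CTL and 280, 176 and 168 in H2A.Z dKO at its lead interval (Peak_28297). Here too replicate 1 was the highest and the other H2A.Z dKO libraries the lowest, and the log2 fold change of 0.079 (SE 0.16) turned to -0.23 without it.

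**Figure D4:**
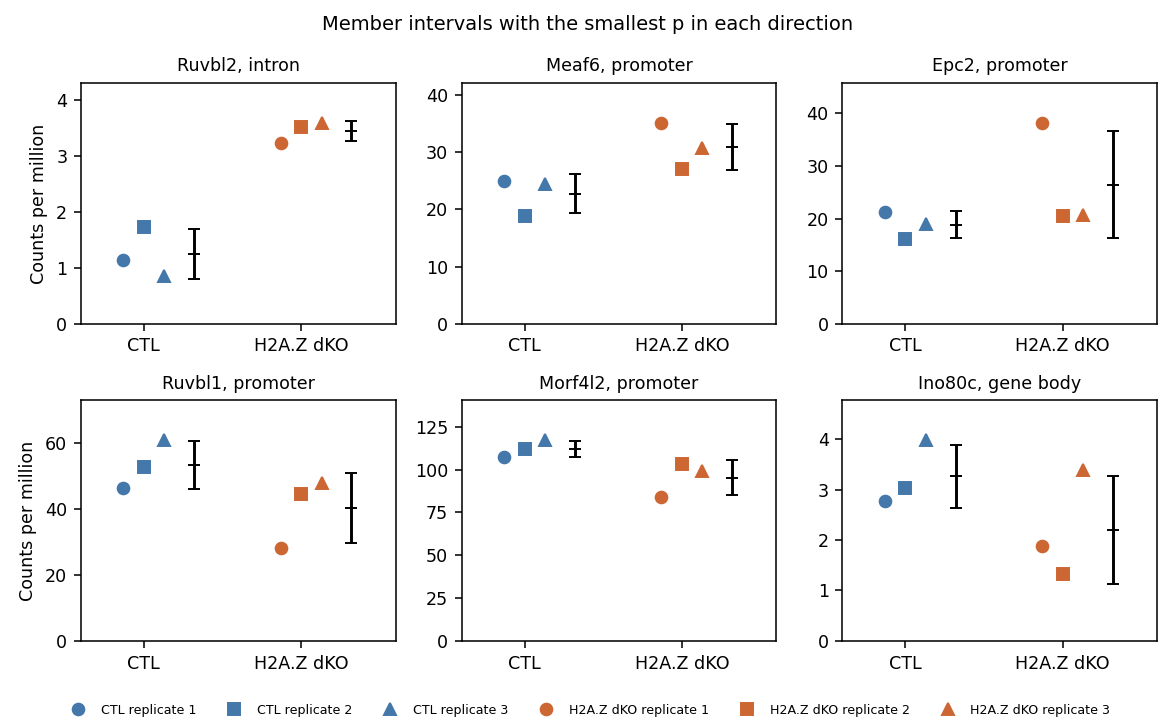
CPM (y axis, starting at 0, 1 scale per panel) in each library at the 3 members of smallest p in each direction, higher in H2A.Z dKO in the upper row and lower in the lower row, with the mean and SD of each group beside the points. The groups lie apart at the Ruvbl2 intron, Meaf6 and Morf4l2 and overlap at Ruvbl1 and Ino80c, and replicate 1 sets the mean of H2A.Z dKO at Epc2, where the other points are at 20.4 and 20.7.

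When the promoter intervals were summed per gene, 1 of 35 member genes had an unadjusted p under 0.05 (2.86%, beside 4.33% of all 12289 genes with a promoter interval), namely Ruvbl1 (log2 fold change -0.39). None passed at an adjusted p under 0.05, nor did any gene (0%), and the smallest adjusted p among the members was 0.947. The log2 fold change was positive in 22 and negative in 13, with a median of 0.030 beside 0.0079 over all genes. Without H2A.Z dKO replicate 1 it was positive in 14 and negative in 21, with a median of -0.010 beside 0.0013 over all genes. With all libraries it lay within 0.15 of 0 for 30 of the 35. The others were Ruvbl1, Morf4l2 (-0.21), Vps72 (0.29), Meaf6 (0.23) and Epc2 (0.22), and without replicate 1 these were at -0.17, -0.13, 0.13, 0.19 and 0.021. The 95% confidence interval lay within 1.5-fold for 32 genes and within 2-fold for all 35.

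**Figure D5:**
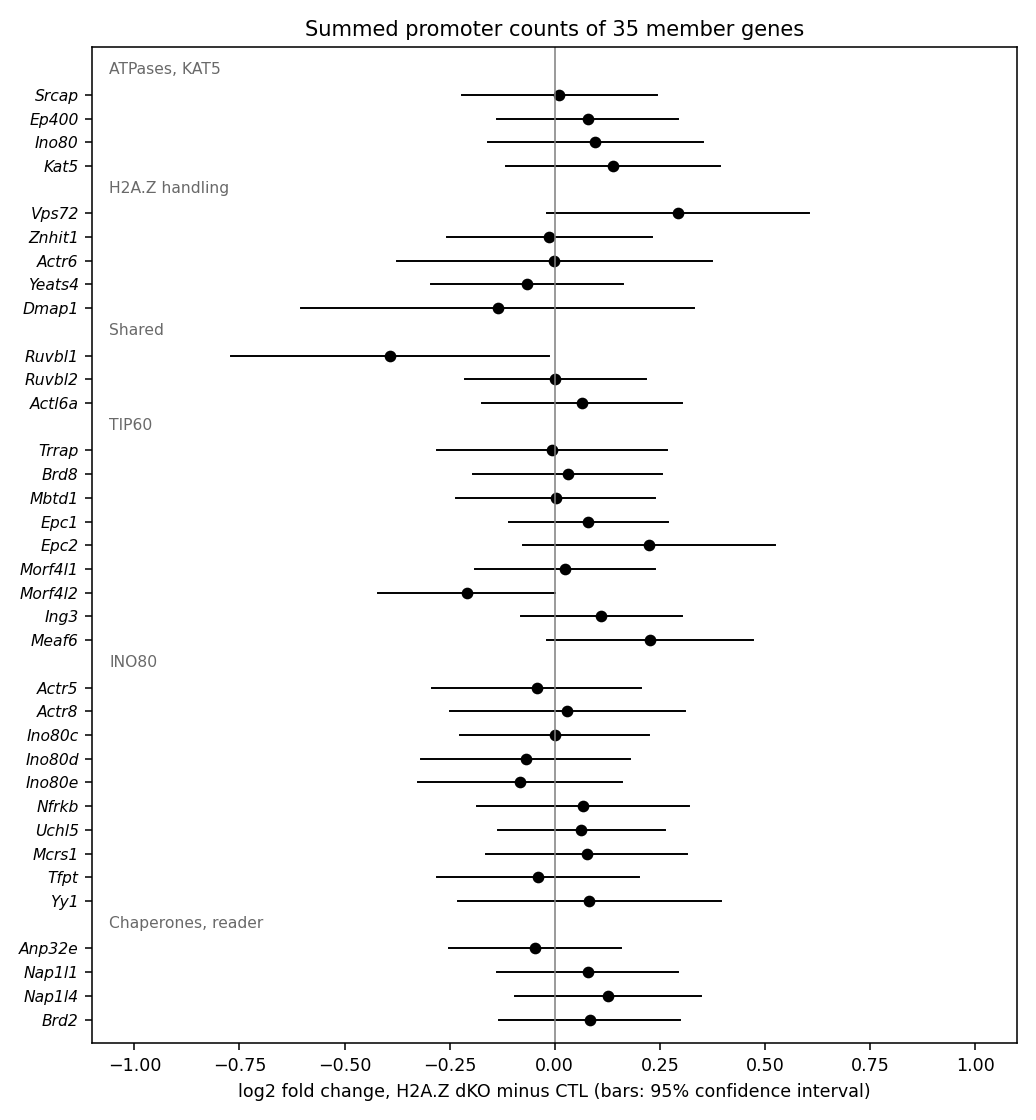
log2 fold change between H2A.Z dKO and CTL (x axis) of the counts summed over the promoter intervals of 35 member genes, grouped by role, with 95% confidence intervals from edgeR as bars. Most points lie within 0.15 of 0, and the confidence interval of Ruvbl1 alone does not reach 0.

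By complex, the promoter intervals gave median log2 fold changes of -0.025 for SRCAP (9 genes, 19 intervals), 0.060 for p400/TIP60 (17 genes, 52 intervals), -0.00042 for INO80 (14 of 15 genes, 38 intervals) and 0.066 for the chaperones and the reader Brd2 (4 genes, 15 intervals). Without H2A.Z dKO replicate 1 the same medians were -0.11, -0.082, -0.11 and -0.022. In each complex this library had the highest summed CPM of the 6 libraries, for example 2494 CPM in p400/TIP60 where CTL gave 2196 to 2206 and the other H2A.Z dKO libraries gave 2139 and 2143. Besides the members, 44 genes of other remodellers (SWI/SNF, ISWI, CHD) and histone chaperones were examined, of which 41 had a promoter interval. Of their 93 promoter intervals 0 passed at an adjusted p under 0.05 by edgeR, and at an unadjusted p under 0.05 there was 1 that was higher in H2A.Z dKO and 0 that were lower (1.08%, beside 3.83% of all promoter intervals), with a median log2 fold change of 0.038, and of -0.056 without H2A.Z dKO replicate 1. The unadjusted count without that library was 3 of 93 (3.23%, beside 6.51% of all promoter intervals), all in SWI/SNF. In their sum, too, replicate 1 was the highest library, with 3736 CPM where CTL gave 3585 to 3674, as it was for SWI/SNF and ISWI but not for CHD and the histone chaperones. H2afz and H2afv, the genes of H2A.Z itself, had summed promoter levels of 336 to 391 CPM in CTL and 343 to 430.3 CPM in H2A.Z dKO, with the highest in replicate 1.

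By position within the promoter the medians did not follow one order. The 18 member intervals with a midpoint 250 bp to 1 kb upstream of the TSS had a median log2 fold change of 0.017, with 12 positive. The 39 up to 250 bp upstream had a median of -0.037 and the 27 up to 250 bp downstream 0.066. The 21 from 250 bp to 1 kb downstream had a median of 0.090, with 17 of the 21 positive. These 21 lay in 12 genes, and some of them share bases. Signs were not counted over all intervals of the zones. Over all intervals near protein-coding TSS the same zones had medians of 0.025, -0.0094, 0.018 and 0.072. Without H2A.Z dKO replicate 1 the members' medians were -0.047, -0.082, -0.11 and 0.00010 in these zones, and those of all intervals were -0.049, -0.040, -0.044 and -0.033. Of the 118 member intervals, 38 (32.2%) had the opposite sign when this library was left out, beside 22.0% of all intervals. Examples are the downstream interval of Srcap (Peak_16673), from 0.043 to -0.25, and that of Nap1l4 (Peak_17083), which had 25.0, 22.7 and 26.1 CPM in CTL and 47.2, 25.3 and 24.1 CPM in H2A.Z dKO and went from 0.41 to -0.016.

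A column of the deposited table names the peak set in which each interval was found. An interval listed for a single group can overlap intervals of the other list, because peaks that were not merged stayed separate. At the Ruvbl2 promoter, Peak_15290 (H2A.Z dKO only) overlaps Peak_15289 and Peak_15291 (CTL only). A list for a single group thus does not mean that the other group had no peak there. Of the member intervals 64 (54.2%, beside 38.7% of all) were listed for both groups, 34 (28.8%, beside 43.4%) for H2A.Z dKO only and 20 (16.9%, beside 17.9%) for CTL only. The peak sets were called on the same libraries as the counts, so the list is not independent of the sign of the fold change. Over all intervals 69.8% of those listed for H2A.Z dKO only and 29.5% of those listed for CTL only were positive. The members' values by list are therefore a description. For the 34 found in the H2A.Z dKO set alone the median log2 fold change was 0.10, with 26 of them positive, beside 0.11 over all intervals of that list and 0.025 over the 64 members listed for both groups. The 20 listed for CTL only had a median of 0.033, with 11 positive, where that of all intervals of the list was -0.13. Without H2A.Z dKO replicate 1 these members' medians were 0.034 for H2A.Z dKO only, -0.053 for both and -0.12 for CTL only, beside 0.13, -0.043 and -0.16 over all intervals of these lists. Among the leads, 5 were listed for H2A.Z dKO only (Actr8, Dmap1, Ruvbl2, Tfpt and Vps72), and their log2 fold changes ran from -0.14 at Dmap1 to 0.12 at Vps72. That of Dmap1 was -0.0024 without CTL replicate 1 and -0.30 without CTL replicate 3.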

How the data were processed

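Muscle nuclei were profiled by ATAC-seq in 3 CTL and 3 H2A.Z dKO libraries. After trimming with Trimmomatic, reads were aligned by the authors to mm9 using Bowtie (Bowtie2 in the submitters' processing notes), cleared of PCR duplicates by Picard and shifted for the Tn5 cut, and peaks were called by MACS2. The authors deposited raw counts of fragment ends for each union interval and library. They also deposited, from their own DESeq2 comparison, fold changes and p-values, which were not used. Versions are not given in the sources used here. Column names of the table were matched to the sample titles, and 0 columns of sample values were left unused. Starts were read as counted from 0, as in BED files.

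Intervals were annotated with GENCODE vM1. All 39768 intervals were fitted with edgeR 4.0.16 in R 4.3.3 (robust quasi-likelihood test without a replicate block, TMM factors between 0.971 and 1.02), with p-values adjusted over all intervals by Benjamini-Hochberg and a threshold of 0.05, and 12289 promoter sums of genes were fitted in the same way. Both fits were tested on simulated data. Standard errors were derived from the log2 fold change and its F statistic, and errors cover the spread between 3 libraries, which may be technical, and counting. Alternatives were DESeq2 1.42.0, limma voom 3.58.1, other scalings, a filter at a mean of 20 counts, a promoter window of 250 bp, a replicate block and each library left out.

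The members and lists were chosen with earlier results of these data known. Full values are given, by rule, for the lead intervals of 12 genes (Srcap, Ep400, Ino80, Kat5, Vps72, Znhit1, Actr6, Yeats4, Anp32e, Ruvbl1, Ruvbl2 and Yy1), the 3 members of smallest p in each direction, and the leads with the highest and the lowest RPKM. Other intervals named, such as those of Vps72, Srcap and Nap1l4 downstream of the TSS, were chosen after their values were seen. RNA-seq and ChIP-seq were not analysed here.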

Additional observations from a re-analysis of the deposited data

How the results depend on the processing

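The count of member intervals at an adjusted p under 0.05 was 0 under every alternative run (DESeq2, limma voom, 3 scalings, a filter at 20 counts, the replicate block and each library left out). At an unadjusted p under 0.05 there were 4 to 6 of them under the alternatives with all libraries, and 2 to 13 when a library was left out. The share was 3.39% with DESeq2 (1.90% of all intervals), 3.39% with limma voom (5.03%), 3.60% with the filter (4.004%), 4.24% with RLE factors (4.95%), and 5.08% with total counts (4.80%), promoter factors (4.56%) and the replicate block (4.42%). The count was 2 without CTL replicate 2 and without CTL replicate 3, 13 (11.02%, beside 5.38% of all intervals) without H2A.Z dKO replicate 2 and 11 (9.32%, beside 5.60%) without H2A.Z dKO replicate 3. Without H2A.Z dKO replicate 1 there were 7 (5.93%, beside 7.95%), of which 2 had been among the 5. The count of member genes at an unadjusted p under 0.05 was 2 instead of 1 (5.71%) with limma voom, with the filter and with the 250-bp window, beside 4.36%, 4.23% and 4.14% of all genes. It was 0 to 4 when a library was left out: 0 without CTL replicate 2 or 3 (3.20% and 2.44% of all genes), and 2, 1, 3 and 4 without CTL replicate 1 and H2A.Z dKO replicates 1, 2 and 3 (3.09%, 6.67%, 5.70% and 6.34%). Factors from promoter intervals were not run for genes, whose table holds promoter counts alone. The median RPKM of the lead intervals was 141 instead of 166 when 73 bp were added to the width, as the construction implies, and Kat5 and Morf4l2 moved by 7 places in the order.

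No pairing by replicate number was seen. Deviations from the group means correlated at -0.099, -0.054 and -0.033 between libraries with the same number, and no library correlated best with its own number. With so few libraries these values cannot tell whether those of the same number were prepared together. With the replicate block there were 6 member intervals and 1 gene at an unadjusted p under 0.05, and the median log2 fold change of the promoter intervals was 0.037.

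The log2 fold changes of the 19 named intervals kept their sign in all 131 values under other settings with all libraries. Among 114 values with a library left out, 15 in 9 intervals turned. The ranges were -0.10 to 0.0070 for Srcap Peak_16672, -0.018 to 0.13 for Ep400 Peak_11087, -0.21 to 0.058 for Ino80 Peak_4116, -0.11 to 0.084 for Ruvbl2 Peak_15290, -0.11 to 0.089 for Znhit1 Peak_11958, -0.13 to 0.014 for Yeats4 Peak_23344, -0.27 to 0.15 for Actr6 Peak_23080, -0.23 to 0.21 for Yy1 Peak_28297 and -0.13 to 0.13 for Actl6a Peak_5622. The median log2 fold change of the promoter intervals was 0.0076 over the 66 within 250 bp of the TSS, against 0.043 over all 105, and with a library left out it ran from -0.065 to 0.075, and the CPM difference from -106 to 199.9. The cause of these turns was not tested. Gene sums and lists without H2A.Z dKO replicate 1 were added after the data were seen. Counts of 3 to 19 per library limit the Ruvbl2 intron.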
